A study of Mus musculus with 20 samples.

Results

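Sox17EK, a form of the transcription factor Sox17, was set against Sox2 in mouse embryonic stem (ES) cells by where each protein had peaks in chromatin immunoprecipitation and sequencing (ChIP-seq). The comparison rests on 4 of the 20 samples of the series: Sox17EK replicates A and B, and Sox2 replicates A and B, each with 1 deposited peak list. All 4 came from KH2 cells, an ES line in which doxycycline at 1 µg/ml switched on a V5-tagged Sox17EK or a V5-tagged Sox2 while the cells stayed undifferentiated, and per the labels the V5 antibody alone was used. Another 14 lists, which did not choose the sites, served as readouts. In ES cells they were 2 of Sox2KE (V5 antibody), 2 of Sox17 (Sox17 and V5 antibodies), and Oct4 lists of the Sox17EK, Sox2KE, Sox17 and Sox2 lines (2 each, 1 for the Sox17 line, Oct4 and V5 antibodies). F9 embryonal carcinoma cells gave 1 list each of Oct4 in untreated cells, Oct4 after retinoic acid (F9+RA, 1 µM) and Sox17 after retinoic acid. The 2 mock samples were not analysed here.

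Sox proteins bind a short DNA element through their HMG box and often do so beside a partner protein. In pluripotent cells Sox2 pairs with Oct4 (Pou5f1) on composite elements that hold a Sox and an octamer half-site, while Sox17 is best known from primitive endoderm and definitive endoderm. At the HMG-box surface that meets Oct4, Sox2 has a lysine where Sox17 has a glutamate. The mutants swap this residue, so that Sox17EK carries lysine and Sox2KE glutamate. The lists themselves cannot show which residue a protein carried. ES cells also make Sox2 and Oct4 of their own, which the V5 antibody does not recognise.

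The whole lists held 28601 and 36700 peaks for Sox17EK A and B, against 32226 and 23924 for Sox2 A and B. The number of reads behind them was unknown. Each peak carried a score from the authors' peak caller, which ranked peaks within a list and is not comparable between lists. To compare lists of equal length, the 5836 strongest peaks of each were taken, the length of the shortest of all 18 lists. The weakest peak inside that limit scored 194.95 in Sox17EK A and 127.71 in Sox17EK B, against 216.62 in Sox2 A and 174.9 in Sox2 B. The first peak outside scored 194.94 and 127.69 in Sox17EK A and B, against 216.58 and 174.89 in Sox2 A and B. Sox17EK peaks were narrower, with whole-list median widths of 453 and 312 bp against 520 and 601 bp for Sox2. A site is an interval merged from overlapping strong peaks of both replicates of a protein, which gave 3505 Sox17EK sites and 4253 Sox2 sites. A Sox2 site was called missed where neither whole Sox17EK list had an overlapping interval, and a Sox17EK site was called Sox17EK-only where neither whole Sox2 list had one. Intervals given as 95% are exact Clopper-Pearson intervals over sites. They cover counting error only, since sites of 1 library are not replicates.

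Sox17EK shared a large part of its strongest peaks with Sox2, yet less than replicates of a protein shared with each other. Sox17EK A had 44.7% of its strongest peaks in common with Sox2 A and 46.0% with Sox2 B, as the mean of both directions. Sox17EK B had 37.5% in common with Sox2 A and 37.7% with Sox2 B. The values split by the Sox17EK replicate and hardly by the Sox2 replicate. The replicates of Sox17EK shared 60.8% and those of Sox2 73.4%, above each of the 4 cross pairs. Peaks moved 10 kb to either side shared 0.891% to 1.88%. Within proteins the mean was 67.1%, and between them 41.5% ± 4.53 (SD, n = 4 pairs that reuse libraries), a difference of 25.6 points. An exact two-sided permutation test over the 4 libraries gave p = 0.333, the smallest that 2 against 2 libraries allow. Relative to the overlap of replicates (geometric mean of both), cross sharing reached 62.1%. Whether A and B stem from separate cultures is not stated, so the spread behind p may be a technical one. Each protein is represented by 1 line, so protein and line cannot be told apart. The difference was 15.0 points with the lists extended to 23924 peaks.

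**Figure D1:**
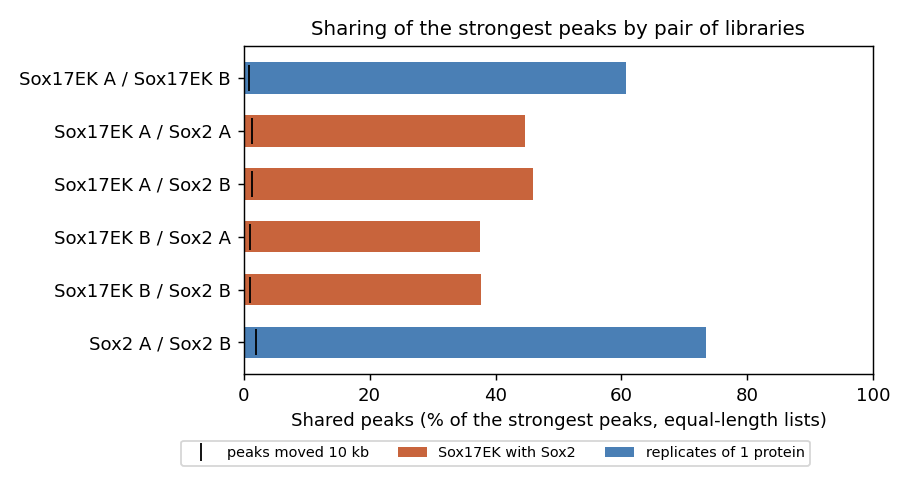
Horizontal bars give the percent of the 5836 strongest peaks of each list that overlap between 2 libraries (mean of both directions), for replicates of 1 protein and for Sox17EK with Sox2, and black ticks give the same for peaks moved 10 kb. The 4 cross pairs sit between 37.5% and 46.0%, below the 60.8% of the Sox17EK replicates and the 73.4% of the Sox2 replicates.

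Most Sox2 sites were taken up by Sox17EK. Of 4253 Sox2 sites, 2631 lay in both Sox17EK lists (61.9%, 95% interval 60.4 to 63.3) and 771 in 1 of them (18.1%, 17 to 19.3). Sox17EK missed 851 sites, or 20.0% of all tested (18.8 to 21.2). Sox2 sites moved 10 kb had no Sox17EK interval in 92.3% of cases. Of the sites in 1 Sox17EK list, 650 were in A only, with a median Sox17EK score of 112, and 121 in B only, with a median of 79.3. At sites in both lists the median Sox17EK scores were 410 in A and 197 in B. Partly taken up sites thus had weaker Sox17EK peaks. Sox17EK replicate A carried much of the result: without it 35.3% of Sox2 sites were missed. The share also depended on how deep the lists were read. It was 43.5% where absence was judged on the strongest Sox17EK peaks only, 31.4% where Sox17EK peaks had to score 100 or more, and 36.9% with 15697 Sox2 sites from longer lists.

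In the other direction, with sites looked up in whole lists, a smaller share lacked the other protein. Of 3505 Sox17EK sites, 2907 lay in both Sox2 lists (82.9%, 81.7 to 84.2) and 321 in 1 of them (9.16%, 8.22 to 10.2), with 234 in A only and 87 in B only. Sox17EK-only sites numbered 277, or 7.90% of all tested (7.03 to 8.85), and moved Sox17EK sites had no Sox2 interval in 94.1% of cases. The share of missed Sox2 sites exceeded the share of Sox17EK-only sites by 12.1 points. This excess kept its sign under every one of the 11 alternatives, from 4.38 to 15.8 points, and was not tested. Between strongest peaks of single libraries the directions were nearly even. Of Sox17EK peaks 38.1% to 46.3% were shared, and of Sox2 peaks 36.9% to 45.8%. Whole Sox17EK lists held 86.3% (B) and 82.0% (A) of the strongest peaks of the other replicate. Whole Sox2 lists held 97.8% (B) and 99.1% (A). Whether the excess stems from the proteins or from this difference between lists was not tested. The share of Sox17EK-only sites depended on the libraries used as well. Without 1 Sox17EK replicate, the sites were the 5836 strongest peaks of the other, with no second library required. Of these other, less strictly chosen sites, 25.9% lacked Sox2 without Sox17EK replicate A and 11.9% without Sox17EK replicate B. On the 3505 sites the share was 14.6% without Sox2 replicate A. It was 38.6% where absence was judged on the strongest Sox2 peaks alone, 21.2% with longer lists, 18.9% at Sox2 scores of 100 or more and 12.2% with midpoints as the match.

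Uptake was more complete at strong sites than at weak ones. Of the 500 Sox2 sites of best mean rank, 428 lay in both Sox17EK lists (85.6%, 82.2 to 88.6) and 50 in 1 of them, and Sox17EK missed 22 (4.40%, 2.78 to 6.59). Of the 500 strongest peaks of Sox2 A and B, Sox17EK B alone lacked 16.8% and 17%, and Sox17EK A alone 8.60% of each, with lists cut to 23924 peaks. It missed 12.0% of the next 500 sites, 18.8% of the 1000 sites after those and 25.8% of the sites beyond rank 2000. Sox17EK-only sites made up 4 of the 500 strongest Sox17EK sites (0.800%), 20 of the next 500 and 64 of the 1000 after those (6.40%), and 12.6% beyond rank 2000. At each range the missed share of Sox2 sites was above the Sox17EK-only share. With the 1000 strongest peaks in place of the 5836, the missed share was 5.73% (41 of 715 sites) and the Sox17EK-only share 1.35% (9 of 667).

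**Figure D2:**
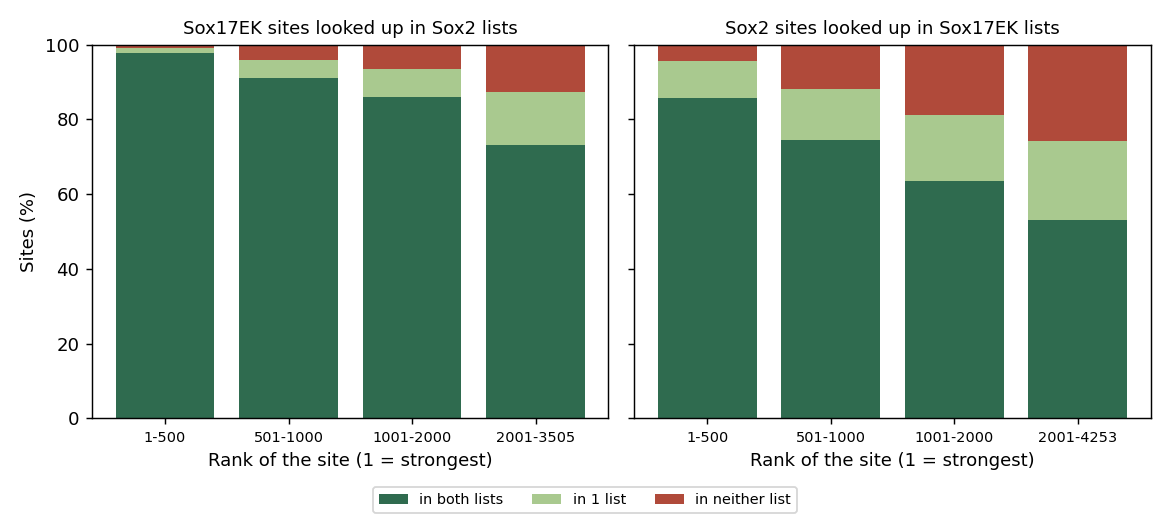
Stacked bars give the percent of sites found in both lists, in 1 list or in neither list of the other protein, by rank of the site, for Sox17EK sites looked up in the whole Sox2 lists and for Sox2 sites looked up in the whole Sox17EK lists. The part in neither list grows with rank in both panels, to 12.6% of Sox17EK sites and 25.8% of Sox2 sites.

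A replicate of Sox2 showed what a second library of the same protein holds at these ranks, with every list looked up at its 23924 strongest peaks. Of the 500 strongest Sox2 A peaks, 91.4% were found in Sox17EK A and 83.2% in Sox17EK B, against 100% in Sox2 B. Beyond rank 2000, 61.5% were found in Sox17EK A and 44.5% in Sox17EK B, against 96.6% in Sox2 B. The 500 strongest Sox17EK A peaks met Sox2 nearly as often as they met their own replicate. Of these peaks, 98.4% were found in Sox2 A and 98.4% in Sox2 B, and 99.8% in Sox17EK B. The next ranges met Sox2 less often. Of the next 500 peaks, 93.2% were found in Sox2 A and 94.0% in Sox2 B, against 99.8% in Sox17EK B. Of the 1000 after those, 88.2% were found in Sox2 A and 88.8% in Sox2 B, against 95.3% in Sox17EK B. Beyond rank 2000, 74.0% of Sox17EK A peaks were found in Sox2 A and 73.4% in Sox2 B, close to the 73.2% found in Sox17EK B. Sox17EK B peaks of that range met Sox2 A in 54.5% and Sox2 B in 54.3% of cases, below the 71.7% found in Sox17EK A. The stronger Sox17EK B peaks met Sox2 less often than their own replicate too. Of its 500 strongest, 96.6% were found in Sox2 A and 96.8% in Sox2 B, against 100% in Sox17EK A. For the next 500 the shares were 89.4% and 89.2%, against 100%. For the 1000 after those they were 85.5% and 84.0%, against 98.2%.

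Presence at a site did not mean the same strength there. Over the 2631 Sox2 sites that all 4 lists hold, the ranks of peaks correlated with a Spearman rho of 0.754 between the Sox17EK replicates and 0.734 between the Sox2 replicates, but 0.243 to 0.306 across the proteins. These are descriptions across sites, which share their libraries. Of the 500 strongest Sox2 sites, 428 lay in both Sox17EK lists, with a median of their mean Sox17EK rank of 951. By that mean rank, 146 of them were among the 500 strongest Sox17EK peaks and 219 among the 1000 strongest. Another 65 of the 428 ranked beyond the strongest 5836. The ranks come from whole lists of different lengths. The order of strength was thus more alike between replicates of a protein than between the proteins.

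The 851 missed sites were moderately weaker Sox2 sites of much the same width as the rest. Their median Sox2 scores were 357 in A and 279 in B, against 457 and 369 at the 2631 sites in both Sox17EK lists, and their median width was 918 bp against 939 bp. A Sox17EK interval lay within 1 kb of 9.87% of missed sites (7.95 to 12.1), against 11% of the same sites moved 10 kb. The median distance to the nearest Sox17EK interval was 12.1 kb at missed sites, against 12.3 kb at moved ones. Missed sites overlap no Sox17EK interval by definition, whereas the moved ones were not chosen that way. These shares and distances are thus not measured alike, and no conclusion is drawn from their closeness. By chromosome the missed share ran from 15.3% on chromosome 15 (9.75 to 22.5) to 28.6% on chromosome 18 (21.3 to 36.8).

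Sox2KE, the Sox2 form that carries glutamate, held most Sox2 sites, including those that Sox17EK missed. A Sox2KE A peak lay at 89.0% and a Sox2KE B peak at 94.0% of missed sites, against 82.0% and 89.2% of sites in both Sox17EK lists. Over all 4253 Sox2 sites the shares were 84.4% and 91.1%, close to those at missed sites. Sox17 behaved the other way: its A and B lists had a peak at 8.70% and 6.35% of missed sites, against 59.7% and 43.2% of sites in both Sox17EK lists. The same sites moved 10 kb gave 1.65% and 0.823% for missed sites with Sox17 A and B. Both Sox2KE lists and neither Sox17 list had a peak at 664 missed sites (78.0%, 75.1 to 80.8), against 597 of the 2631 sites in both lists (22.7%, 21.1 to 24.3). Sox2 sites with a peak in both Sox17 lists were missed in 2.67% of cases (31 of 1159), those in neither Sox17 list in 34.6% (754 of 2182). Presence in both Sox2KE lists went with a missed share of 21.3%, and presence in neither with 14.2%. The Sox17 lists were short, at 10301 and 5836 peaks, and name another antibody beside V5, whereas Sox2KE lists held 33123 and 71693 peaks, so list length and protein cannot be told apart in these shares. With every list cut to its 5836 strongest peaks, Sox2KE lay at 64.4% (A) and 56.6% (B) of missed sites, against 54.5% and 47.0% of all Sox2 sites. Sox17 then lay at 4.94% (A) and 6.35% (B) of missed sites, against 32.5% and 31.6% of all Sox2 sites.

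Set against the other Sox proteins at 5836 peaks a list, Sox17EK and Sox2KE left similar shares of Sox2 sites without one of their strongest peaks. Sox17 left more, but its lists were cut far less. The cut kept the whole Sox17 B list and 5836 of the 10301 Sox17 A peaks. The Sox17EK lists were cut from 28601 (A) and 36700 (B) peaks. Whether the larger Sox17 share stems from the protein or from its short lists was not tested. Among the 5836 strongest peaks, 43.5% of Sox2 sites were absent from both Sox17EK lists (42.0 to 45.1), 41.9% from both Sox2KE lists (40.4 to 43.4) and 59.9% from both Sox17 lists (58.4 to 61.3). With 23924 peaks a list, 22.4% were absent from Sox17EK (21.2 to 23.7) and 17% from Sox2KE (15.9 to 18.2). The closeness of Sox17EK and Sox2KE was thus limited to the shorter length. The Sox17 lists are too short for 23924 peaks. Sox17EK sites were absent from Sox2 in 38.6% of cases, from Sox17 in 57.9% and from Sox2KE in 70.6%. On whole lists, 48 Sox2 sites lacked both mutants. They were 5.64% of the 851 missed by Sox17EK, while 7.97% of all 4253 Sox2 sites lacked Sox2KE. They were 14.2% of the 339 absent from Sox2KE, while 20.0% of all Sox2 sites lacked Sox17EK. These shares were not tested against each other.

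Oct4 marked the missed sites less often in cells without an induced form of Sox2. In untreated F9 cells, whose library used the Oct4 antibody alone, an Oct4 peak lay at 34.8% of missed sites (31.6 to 38.1), at 72.9% of sites in 1 Sox17EK list (69.6 to 76.0) and at 91.9% of sites in both (90.8 to 93.0). The same missed sites moved 10 kb gave 6.76%. F9+RA cells gave 31.3% at missed sites against 88.3% at sites in both lists, and Oct4 of the Sox17 line 26.1% against 95.6%. The order of missed, partly taken up and fully taken up sites was the same in these 3 lists, and the sites had not been chosen by them. The library of the Sox17 line names the V5 antibody too, so Oct4 and tagged Sox17 cannot be told apart there. Sox17 A itself had a peak at 8.70%, 31.5% and 59.7% of these classes. Each of the 3 lists is 1 library. The difference of -57.2 points between missed sites and sites in both lists for F9 cells thus has no replicate check on the side of Oct4. Over the alternatives it ran from -37.4 (without Sox17EK replicate A, a change of over 1.5 times) to -63.4 points (without Sox2 replicate B).

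Rank and Oct4 each went with the missed share. Among Sox2 sites with an Oct4 peak in F9 cells, 9.03% of 3277 were missed, against 56.9% of 976 without one. For the 500 strongest sites the shares were 1.15% with and 26.2% without an Oct4 peak (16.0 to 38.5, 65 sites). For the next 500 sites they were 6.21% with and 42.0% without, for the 1000 after those 8.14% with and 55.3% without, and beyond rank 2000 12.2% with and 62.7% without. Sites beyond rank 2000 with an Oct4 peak were missed less often than the 500 strongest without one. By Oct4 of the Sox17 line, whose library names V5 too, 6.79% of sites with and 64.0% of sites without a peak were missed.

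**Figure D3:**
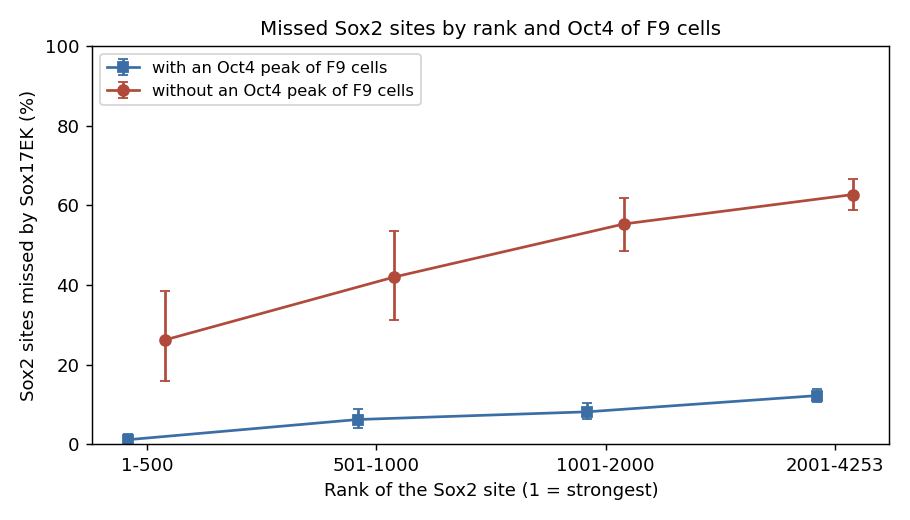
Points give the percent of Sox2 sites missed by Sox17EK by rank of the site, for sites with and without an Oct4 peak in untreated F9 cells, and bars give exact 95% intervals of counting error. The shares run from 1.15% to 12.2% with an Oct4 peak and from 26.2% to 62.7% without one, with Oct4 read from 1 library.

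In the induced ES lines, the Oct4 lists had peaks at fewer missed sites in the Sox17EK line than in the Sox2 line. At missed sites an Oct4 peak was found in 46.7% (A) and 29.6% (B) of cases in the Sox17EK line, against 99.9% (A) and 88.1% (B) in the Sox2 line. Both libraries of the Sox17EK line lay below both of the Sox2 line. The means were 38.1% ± 12.0 and 94.0% ± 8.31 (SD, n = 2 each), a difference of -55.9 points (exact two-sided permutation p = 0.333, the smallest possible). With the Oct4 lists cut to 32877 peaks each it was -73.8 points. At 351 missed sites (41.2%) both Oct4 lists of the Sox2 line and neither of the Sox17EK line had a peak. The reverse was found at 0 of 851. It had almost no room to occur, since only 1 missed site lacked a peak in both Oct4 lists of the Sox2 line. The counts of both patterns are therefore no fair contrast. The Sox2KE line resembled the Sox2 line, with 91.3% and 78.3%. Sox2 sites in both Sox17EK lists, which were chosen for Sox peaks in both lines, leave no room for a difference, with 99.3% ± 0.645 in the Sox17EK line and 99.4% ± 0.779 in the Sox2 line (SD, n = 2 each). Since the V5 antibody is named beside the Oct4 antibody for these lines, an Oct4 peak there cannot be told apart from a peak of the tagged Sox protein, and the sites were chosen by Sox peaks of the same lines. Within missed sites, neither Oct4 list of the Sox17EK line had a peak at 20.9% of the 296 sites with an F9 Oct4 peak, against 66.7% of the 555 without one.

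At the 277 Sox17EK-only sites the difference between the Sox17EK and Sox2 lines had the opposite sign, which the choice of sites favoured. Their Oct4 shares were 100% (A) and 99.6% (B) in the Sox17EK line, against 83.4% (A) and 43.0% (B) in the Sox2 line. The means were 99.8% ± 0.255 and 63.2% ± 28.6 (SD, n = 2 each), a difference of 36.6 points (exact two-sided permutation p = 0.333, the smallest possible). The libraries of the Sox2 line differed widely. These sites were chosen for peaks in both Sox17EK lists and in neither Sox2 list, and the Oct4 libraries name V5 too. Neither the sign nor p can therefore speak for Oct4 apart from the tagged Sox protein. Over all 3505 Sox17EK sites the mean in the Sox17EK line was 99.9%, so its high share was not particular to this class. The difference was 16.4 points without replicate B of the Sox2 line and 56.9 without its replicate A. With the Oct4 lists cut to 32877 peaks each it was 49.8 points, and Sox2 line A then had a peak at 55.2% of these sites. Outside these lines, Oct4 lay at 78.0% of Sox17EK-only sites in F9 cells (72.6 to 82.7), 66.1% in F9+RA cells and 73.6% in the Sox17 line. These shares were below those of Sox17EK sites in both Sox2 lists, at 95.1%, 90.8% and 97.3% in the same lists. Of Sox17EK sites with an F9 Oct4 peak, 6.63% lacked Sox2 (5.80 to 7.54), against 24.5% of those without one (19.3 to 30.3). In F9 cells, F9+RA cells and the Sox17 line, Oct4 was thus rarer at missed and at Sox17EK-only sites than at sites in both lists. Missed sites were not held by Sox2 alone, since both Sox2KE lists had a peak at 88.6% of them. Rank was not matched, and 189 of the 277 Sox17EK-only sites ranked beyond 2000. Beyond that rank the Sox17 line gave 65.6%, against 94.4% of Sox17EK sites in both Sox2 lists. In the range of 1000 sites before it, these shares were closer, at 92.2% and 98.4%. Oct4 of the Sox2KE line differed little at missed sites (91.3% and 78.3%) from Sox2 sites in both Sox17EK lists (93.3% and 84.8%). It lay at 25.6% and 14.1% of Sox17EK-only sites, against 83.4% and 72.8% of Sox17EK sites in both Sox2 lists. Sox2KE was near its background at Sox17EK-only sites in replicate A (4.69% against 4.33% at moved sites) and above it in B (17.7% against 7.94%). Sox17 had peaks at 14.1% (A) and 6.50% (B) of them, and Sox17 of F9+RA cells at 13.4%, against 52.3%, 37.3% and 22.7% of Sox17EK sites in both Sox2 lists. At 207 of the 277 sites (74.7%, 69.2 to 79.7) no list of Sox2KE or Sox17 in ES cells had a peak, against 17.2% of the 2907 Sox17EK sites in both Sox2 lists (15.9 to 18.7). Their median Sox17EK scores were 323 in A and 203 in B, against 500 and 257 at Sox17EK sites in both Sox2 lists, and their median width was 573 bp against 697 bp.

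**Figure D4:**
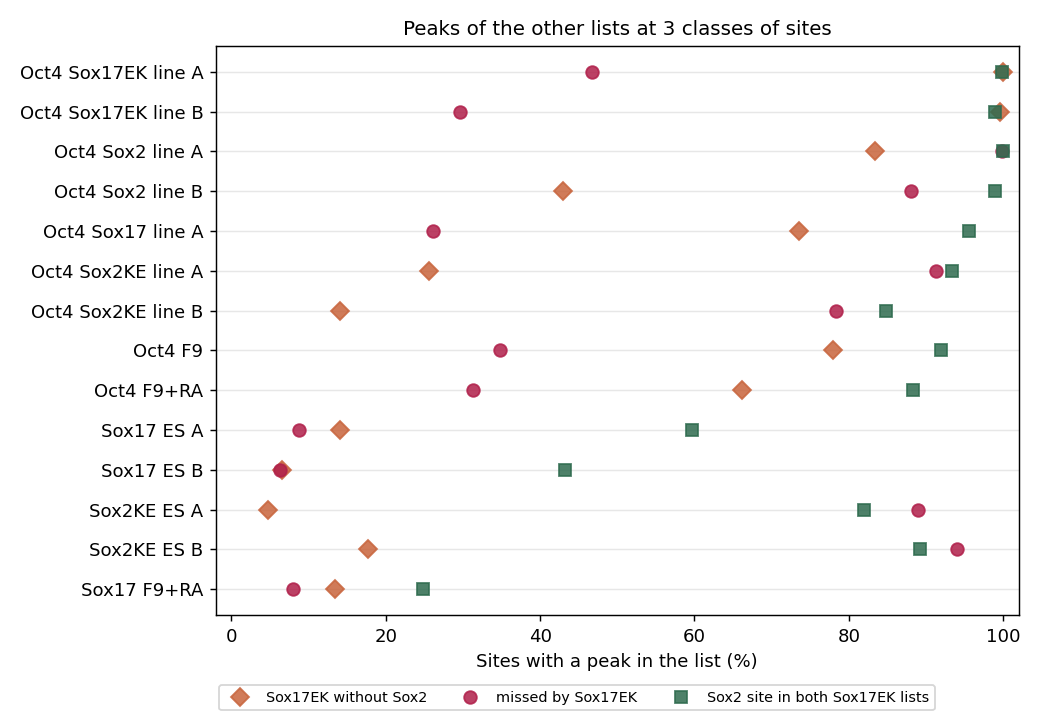
Each row is a peak list and each point the percent of a class of sites with an overlapping peak in that whole list: diamonds for Sox17EK-only sites, circles for Sox2 sites missed by Sox17EK, squares for Sox2 sites in both Sox17EK lists. Missed sites sit at 34.8% in the Oct4 list of F9 cells and at 89.0% and 94.0% in the Sox2KE lists, while Sox17EK-only sites sit at 78.0%, 4.69% and 17.7%.

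Single regions are given with positions in build mm9 and the authors' scores. The strongest missed site lay on chromosome 4 at 53142843 to 53144417 (1575 bp) and ranked 14 among all Sox2 sites. Neither Sox17EK list and neither Sox17 list had a peak there. Its scores were 2033 and 2554 for Sox2 A and B, and 3100 and 2790 for Sox2KE A and B, and the nearest Sox17EK interval was 14.3 kb away. Oct4 had no peak there in either library of the Sox17EK line, in the Sox17 line or in F9 cells, while it scored 287 and 86.5 in the Sox2 line and 948 and 158 in the Sox2KE line. Among the 18 lists this region had peaks in those of the Sox2 and Sox2KE lines and, at 117, in Oct4 of F9+RA cells.

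Another missed site, on chromosome 14 at 73675693 to 73676381, had Sox2 scores of 1322 and 975 and Sox2KE scores of 1771 and 2314. Oct4 had no peak there in the Sox17EK line, the Sox17 line or F9 cells, against 1361 and 324 in the Sox2 line. The site on chromosome 2 at 58141439 to 58143026 was alike, with Sox2 scores of 1602 and 816, Sox2KE scores of 1702 and 3100, and no Oct4 peak in the Sox17EK line against Oct4 scores of 2025 and 281 in the Sox2 line. The second strongest missed site, on chromosome 1 at 176429800 to 176431593, differed from these. A Sox17EK interval lay 0.184 kb away, and Oct4 scored 1222 in replicate A of the Sox17EK line, 3100 and 528 in the Sox2 line and 228 in F9 cells. Over the 10 strongest missed sites, both Sox2KE lists and both Oct4 lists of the Sox2 line had a peak at all 10, the Sox17 lists at 0, the Oct4 lists of the Sox17EK line at 5 (A) and 3 (B), and Oct4 of F9 cells at 3.

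The strongest Sox17EK-only site lay on chromosome 18, with Sox17EK scores of 1602 and 857 and Oct4 scores of 3100 and 1538 in the Sox17EK line, against 276 and 80.5 in the Sox2 line. Peaks of Sox17 A (192, where the median of that list was 82.2) and Sox2KE B (220, where the median was 126) lay there as well. The next, on chromosome 12 at 111424568 to 111425189, was held by Sox17EK alone among the Sox lists, with scores of 1642 and 519. Its Oct4 scores were 3100 and 1520 in the Sox17EK line, against 172 and 51.6 in the Sox2 line, and 179 in F9 cells. The nearest Sox2 interval was 160 kb away. On chromosome 7 at 129621275 to 129622280, Sox17EK scored 727 and 458 at a site where Oct4 of F9 cells scored 2874, and where Oct4 scored 3100 and 1704 in the Sox17EK line, against 506 and 103 in the Sox2 line. Over the 10 strongest such sites, both Oct4 lists of the Sox17EK line had a peak at all 10. In the Sox2 line Oct4 A had a peak at 10 and Oct4 B at 9, and Oct4 of F9 cells had one at 9. Sox2KE A had a peak at 0 and Sox2KE B at 2.

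The strongest sites that all 4 lists held also carried Oct4 in each line. The site on chromosome 14 at 78688489 to 78689474 scored 3100 and 1825 for Sox17EK and 3172 and 2482 for Sox2, and Oct4 scored 3100 in both libraries of the Sox17EK line, against 3100 and 1934 in the Sox2 line, with 1955 in F9 cells. Sox2KE scored 426 and 681 there, and Sox17 710 and 391. On chromosome 5 at 13981415 to 13983107, Sox17EK scored 2984 and 1519, and Sox2 2718 and 2151. On chromosome 2 at 51926687 to 51928210, Sox17EK scored 2929 and 1904, and Sox2 1607 and 1327. All 10 strongest shared sites had a peak in every Sox and Oct4 list of ES cells and in both Oct4 lists of F9 cells. The top one, on chromosome 17 at 39979839 to 39985881, was the widest of the 10 at 6043 bp and scored 3100 in each of the 4 Sox17EK and Sox2 lists. It and 3 others of the 10 had a peak in all 18 lists. Its part in the result is 1 of 2631 sites.

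**Figure D5:**
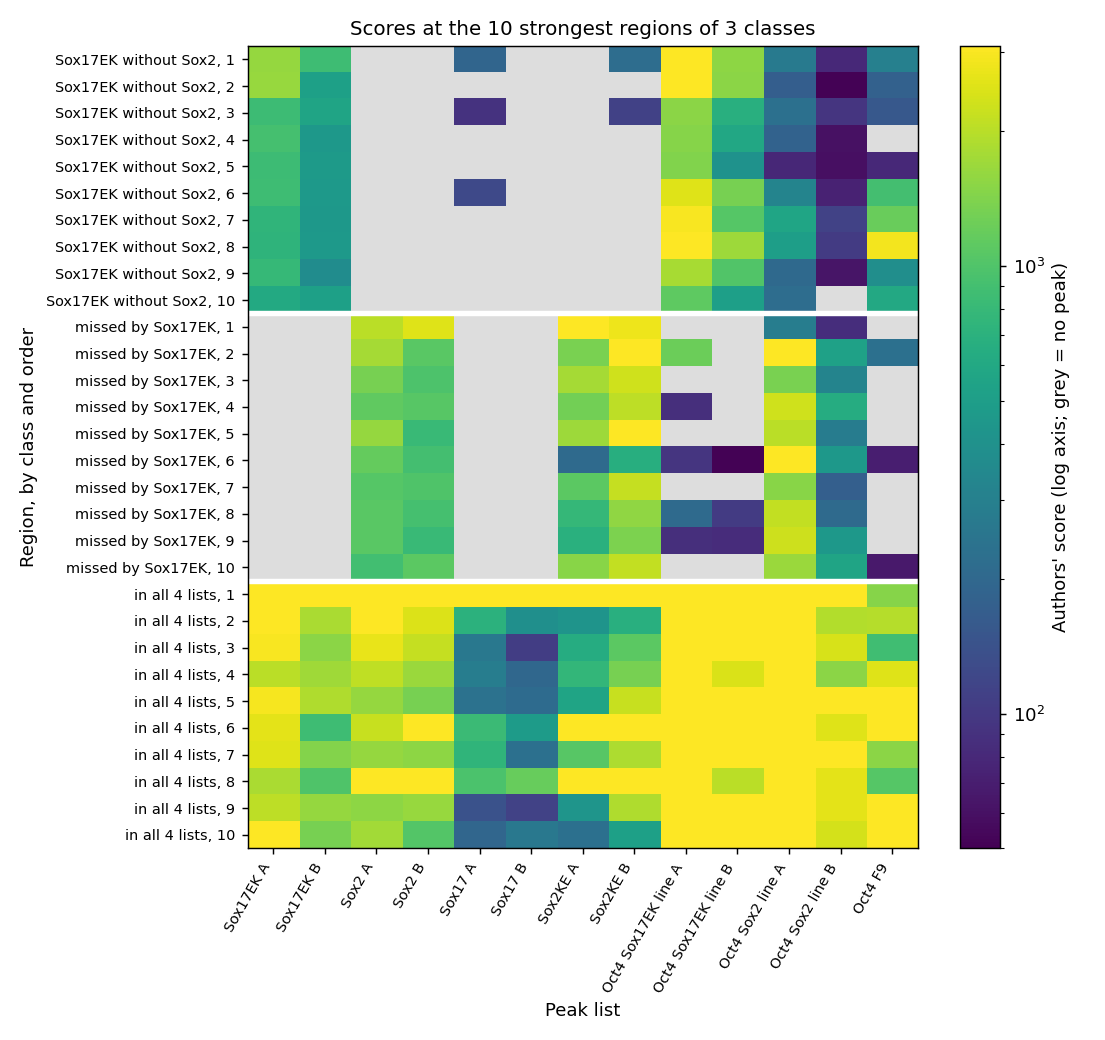
Rows are the 10 strongest regions of each class, Sox17EK-only at the top, then missed by Sox17EK, then in all 4 lists, columns are peak lists, and the colour gives the authors' score on a log axis, with grey for no peak. Scores of different columns are not comparable. Sox2KE is present at all 10 missed regions, where both Sox17 lists are grey, and Oct4 of F9 cells is present at 9 Sox17EK-only, 3 missed and 10 shared regions.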

How the data were processed

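ChIP-seq peak lists of 18 of the 20 samples were read, 1 per sample, and no reads or read counts were used. The authors deposited 5 columns without a header: chromosome, start, end, a peak name with the MACS prefix and a number. That number, the score, was taken as the deposited −log10 of a p-value times 10, the MACS scale, since it starts at 50.0 in every list. No label states this scale. Positions refer to mm9 (per the submitters' processing notes) and count from 1. For the aligner, the caller's version, settings and control, the record reads: not given in the sources used here.

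Peaks were ranked within a list by score, cut to the 5836 strongest, and matched where intervals overlapped by at least 1 bp. Equal scores were ordered by position. The background came from peaks or sites moved by 10 kb on either side. Sites, classes and tests are as defined in the report. Named regions are the 10 of best mean rank in each class. Alternatives changed list length, match, the list that defines absence, and the replicates used. The code for site classes was checked on copies of the Sox2 sites with a known random part removed and the rest moved slightly. Such copies lack the background, width and depth differences of real lists, so nothing follows from them about real lists. The members, lists and rules were chosen with earlier results of these data known. Replicate letters alone did not establish pairs. The motif search, gene groups and sequences that had been planned need a genome of build mm9, which was not used here, so regions carry no gene names. Python 3.11.15, NumPy 2.4.6, pandas 2.3.3, SciPy 1.17.1 and Matplotlib 3.10.9 were used.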

Additional observations from a re-analysis of the deposited data

Results flagged for a closer look

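The difference in Oct4 between the lines turned round between classes of sites. At the 851 Sox2 sites missed by Sox17EK, both Oct4 libraries of the Sox17EK line (46.7% and 29.6%) were below both of the Sox2 line (99.9% and 88.1%), by -55.9 points on average. At the 277 Sox17EK-only sites both were above (100% and 99.6% against 83.4% and 43.0%), by 36.6 points. The gap between these 2 differences was -92.5 points and was not tested. It ran from -107 to -78.2 points with 1 Oct4 library left out. The sites of each class were chosen by Sox peaks of the same lines, and the Oct4 libraries name the V5 antibody too, so Oct4 and the tagged Sox protein cannot be told apart in it.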

How the results depend on the processing

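No result changed direction under the alternatives run. The within minus between difference in sharing ran from 15.0 (longer lists) to 35.8 points, and from 18.9 to 35.8 with 1 library left out. With the replicate block, which compares libraries of the same letter only, it was 25.9 points. The Oct4 difference at missed sites ran from -73.8 to -47.4 points, from -64.4 to -47.4 with 1 library left out, and was -55.9 as paired differences of the same letter (replicate block, -53.2 for A and -58.5 for B), where the smallest exact permutation p is 0.5. At Sox17EK-only sites, in alternatives chosen after the data were seen, the difference ran from 16.4 to 56.9 points and was 36.6 with the replicate block. The gap between both classes was -124 points with the Oct4 lists cut to equal length, and -107 to -78.2 with 1 library left out. The share of missed Sox2 sites, of Sox17EK-only sites and their difference depended on the settings. They were 5.73%, 1.35% and 4.38 points with the 1000 strongest peaks, 36.9%, 21.2% and 15.7 points with 23924 peaks, 26.6%, 12.2% and 14.4 points with midpoints within 200 bp, and 43.5%, 38.6% and 4.97 points with absence from the strongest peaks alone. With absence judged on lists of 23924 peaks the shares were 22.4% and 9.73%, and at scores of 100 or more 31.4% and 18.9%. Leaving out 1 library gave 22.9% to 35.3%, 10.4% to 25.9% and 8.67 to 15.8 points. Where the library left out helped define the sites, the sites were the 5836 strongest peaks of the other replicate alone. The difference in Oct4 of F9 cells between missed sites and sites in both lists, a result chosen after the data were seen, was -63.2 points with the 1000 strongest peaks, -46.9 with midpoints, -40.8 with absence from the strongest peaks alone, -48.9 at scores of 100 or more, and -63.4 to -37.4 with 1 library left out. The cause of these changes was not tested. The planned motif and gene-group results were not run, for want of a genome of build mm9. Depth was unknown, so absence means no called peak and not absence of binding.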
